A study of Mus musculus with 10 samples.

Results

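The 38 genes described here encode transcription factors that build neurons and glia from neural progenitors, and each was asked for peaks of the repressor REST in mouse cortex. They were taken as a fixed list of mm10 gene symbols, 38 of 26089 genes on chromosomes 1 to 19 and X that have a curated RefSeq transcript. A gene was counted as having a peak if a peak overlapped its body or came within 5 kb of one of its start sites. The list holds 9 neuronal basic helix-loop-helix (bHLH) genes, 7 Hes, Hey and Id genes, 5 Sox genes, 9 homeodomain genes, 5 zinc finger genes, 2 oligodendrocyte bHLH genes and the T-box gene Tbr1.

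REST binding was mapped by chromatin immunoprecipitation and sequencing (ChIP-seq) with an antibody to the C terminus of REST. The WT samples were 4 replicates, each of 4 pooled cortices from female WT mice at 11 months of age, the littermate controls of the study. The 3xTg samples were 4 replicates, also each of 4 pooled cortices from females at 11 months, of mice with the mutant transgenes APPSwe and tauP301L and a knock-in of mutant PS1. These mice model Alzheimer's disease and were hybrids of the C57BL/6J and 129Sv/Ev strains. Each genotype had 1 input library, which was chromatin that had not been immunoprecipitated. The cortex was taken as bulk tissue, so neurons and glia were mixed, and ChIP-seq gives no expression level by which the cell types could be checked. Binding in more cells and stronger binding per cell cannot be told apart in such tissue.

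REST is a zinc finger repressor that binds a DNA element known as RE1 and recruits chromatin-modifying corepressors. In progenitors and in cells outside the nervous system it keeps neuronal genes silent. The factors listed here act in the same developmental steps. Proneural bHLH factors such as the neurogenins commit a progenitor to a neuronal fate, and NeuroD factors act after them during neuronal differentiation. Hes and Hey factors, which act downstream of Notch, repress the proneural genes, and Id proteins sequester the E proteins with which the bHLH factors pair. Sox, Pax, Lhx, Emx and POU factors pattern the neural tube and cortex or maintain progenitors, and Olig factors direct the oligodendrocyte lineage.

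The strongest match to RE1 at any of these genes lay under the strongest of their peaks, at the start site of Lhx3. RE1 was scored with position weights built from 275 aligned sites at the summits of 3xTg peaks that were at none of the 38 genes. The sites were found with the half-sites AGCACC and GGACAG, 2 bases apart, on either strand. The aligned sites gave the 22-base consensus NNTCAGCACCNNGGACAGCNNC, and a match was a score of at least 15.1, which 1% of 8054 windows of the same widths 10 kb downstream of the peaks reached. The 3 matches inside a peak at a listed gene are shown first, followed by the 2 high-scoring matches at Neurod1, which had no peak. Capitals mark the 22 bases of each match, with 4 flanking bases in lower case, read 5′ to 3′ on the strand of the match in mm10.
Lhx3: cctcCTTCAGCACCGCGGACAGCGCCagcc
Myt1: gactGATCAGCACTCTGGACAGCGCTccct
Hes1: actaTTCCAGGACCAAGGAGAGAGGTagac
Neurod1 coding exon: cgccCTACGGCACCATGGACAGCTCCcacg
Neurod1 upstream: acagAATCAGCACCGTGGACAACGCCtacc

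The Lhx3 match, at chr2:26208272-26208293 on the minus strand, scored 30.4 and had 0 mismatches to the 16 consensus positions that name a base. Of all matches on chromosomes 1 to 19 and X, 5 scored at least as high, this one included, and 3 of the 5 lay in a WT peak and 4 in a 3xTg peak. The weights were built from 3xTg peaks, so the matches other than that of Lhx3 may include sites used to build them. The highest possible score was 31.4. The Myt1 match, at chr2:181764800-181764821 on the minus strand in an intron, scored 22.5 with 2 mismatches. The Hes1 match, at chr16:30065390-30065411 on the minus strand in the 5′ UTR, scored 17.0 with 5 mismatches and was the weakest of the 3. The Neurod1 matches, at chr2:79454327-79454348 on the minus strand in a coding exon and at chr2:79460824-79460845 on the plus strand upstream of the gene, scored 23.9 and 22.8.

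REST peaks were found at 4 of the 38 genes in the WT list (10.5%) and at 6 of 38 in the 3xTg list (15.8%). The same rule called 9.3% of all 26089 genes in the WT list and 14.2% in the 3xTg list, so the shares of the neural lineage factors lay close to those of all genes. The genes with a WT peak were Hes1, Lhx3, Pou3f3 and Myt1l. Those 4 also had a 3xTg peak, as 7.78% of all genes did in both lists (members 10.5%). Emx2 and Myt1 had a 3xTg peak and no WT peak, which was 5.26% of the list beside 6.42% of all genes, and 0 of the 38 genes had a WT peak and no 3xTg peak, beside 1.52%. Within 5 kb of a start site, leaving out the gene body, 3 genes had a WT peak (7.89%, all genes 6.72%) and 5 had a 3xTg peak (13.2%, all genes 9.87%).

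**Figure D1:**
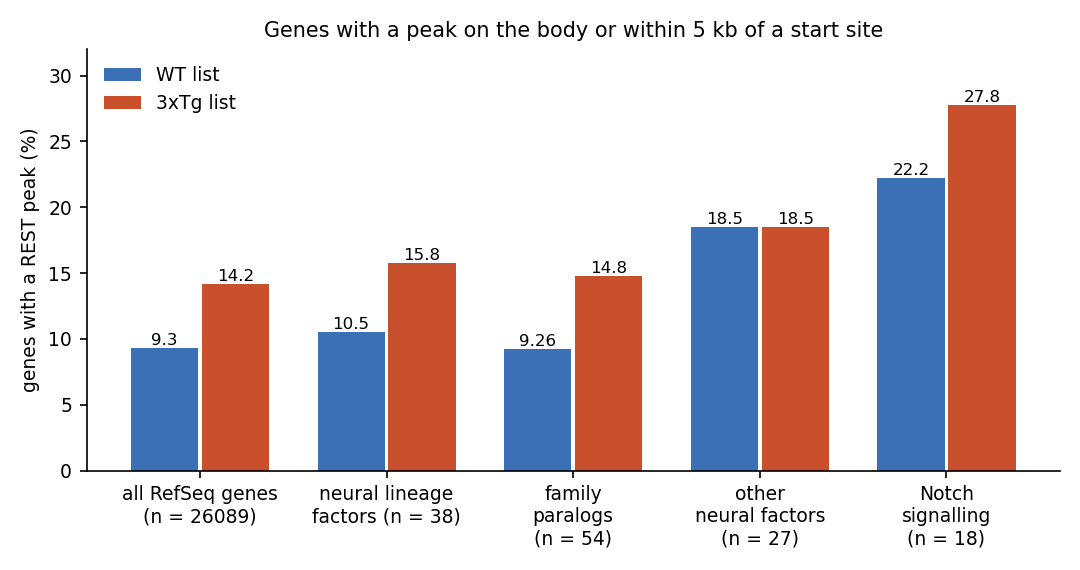
Bars give the percentage of genes with a REST peak on the gene body or within 5 kb of a start site, in the WT list (blue) and the 3xTg list (orange), for all RefSeq genes, the 38 neural lineage factors and 3 related gene lists. The neural lineage factors stand at 10.5% and 15.8%, next to 9.3% and 14.2% for all genes.

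Each genotype was represented by 1 list of peaks that combined its 4 replicates, so a peak has 1 value per genotype. No replicate spread could be computed from these lists, and no difference between the genotypes was tested here. The study itself ran a differential binding analysis, which reported peaks with significantly higher REST occupancy in 3xTg and none significantly lower. Its results for single peaks are not given here. The value used was the fold enrichment, the height of the peak over the local background. The WT list held 3006 peaks with fold enrichments of 6.0 to 68.6 and a median of 7.28, and the 3xTg list held 5077 peaks of 8.50 to 69.0 with a median of 10.8. The lists therefore ended at different limits, and a fold enrichment was compared with the other peaks of its own list by rank. A peak was called shared if it overlapped a peak of the other list by at least 1 base.

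Lhx3, a LIM homeodomain factor of motor neurons and the pituitary, had the strongest peak of the 38 genes in both lists. In the WT list its start-site peak (chr2:26208024-26208717) had a fold enrichment of 16.5 and ranked 146 of 3006. In the 3xTg list the overlapping peak (chr2:26207421-26208720) had a fold enrichment of 27.5 and ranked 184 of 5077. Both placed the gene in the top 5% of its list, at 4.86% in WT and 3.62% in 3xTg. The WT summit was at -37 bases and the 3xTg summit at -27 bases from a start site, just upstream of it. The centre of the RE1 match was 3 bases from the WT summit and 7 bases from the 3xTg summit. The bases before the start site are shown on the minus strand, the strand of the gene, from chr2:26208250-26208426, with the RE1 match in capitals and the transcript beginning right after the last base. The 177 bases were 67.8% G and C with 9 CpG dinucleotides.
Lhx3 upstream: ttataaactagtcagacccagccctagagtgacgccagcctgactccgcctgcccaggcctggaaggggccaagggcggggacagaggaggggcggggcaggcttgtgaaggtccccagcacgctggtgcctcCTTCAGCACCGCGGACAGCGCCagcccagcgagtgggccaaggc

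A second Lhx3 peak was in the WT list only, at chr2:26205122-26205550 in an intron, with its summit 1182 bases downstream of a start site and a fold enrichment of 7.29. The distance to the closest 3xTg peak was 1871 bases, and no RE1 match was present. A second RE1 match in a coding exon of Lhx3, with a score of 15.6, was in no peak.

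Hes1, the Notch target that represses proneural genes, had a shared peak across its start site. The WT peak (chr16:30064998-30065505) had a fold enrichment of 6.81 and ranked 1877 of 3006, in the lower part of its list. The 3xTg peak (chr16:30063986-30065556) had a fold enrichment of 14.3 and ranked 1173 of 5077, at 23.1% of its list. The summits were at -129 (WT) and -171 (3xTg) bases from the start site, upstream of it. The RE1 match was centred 173 bases from the WT summit and 215 bases from the 3xTg summit. The 3xTg peak was 1571 bases wide and the WT peak 508. Over the 2504 WT peaks with a 3xTg partner, the ratio of the 3xTg to the WT fold enrichment had a median of 1.70 and quartiles of 1.49 and 1.94. The ratio at Hes1 was 2.1, above 84.6% of those pairs, while the ratio at Lhx3 was 1.66, above 45.4%. The 3xTg list ended at 8.50, so a WT peak under that value could only pair with a larger 3xTg value. This limit applied to Hes1, at 6.81 in WT, and not to Lhx3, at 16.5. Without replicate values for the peaks, these ratios carry no error.

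Pou3f3, a POU homeodomain factor of upper-layer cortical neurons, had a shared peak far upstream and none at its start site. The WT peak (chr1:42691179-42691565) had a fold enrichment of 7.0 and a rank of 1704, and the 3xTg peak (chr1:42690753-42691928) had a fold enrichment of 12.6 and a rank of 1653. The ratio of 1.80 lay above 60.7% of the shared pairs, under the same limit as that of Hes1. Relative to the Pou3f3 start site the summits were at -4344 and -4323 bases, the minus sign meaning upstream. The start site of the noncoding gene Pantr1 was nearer to both, at 3401 and 3380 bases, and the same peaks also counted for Gm46091. The best RE1 score in either peak was 0.681, far under the limit for a match. This pair was the farthest from a start site that the 5 kb rule took in outside a gene body, with peak edges 4203 bases (WT) and 3840 bases (3xTg) from the start site.

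Emx2, a homeodomain factor that patterns the caudal and medial cortex, had the second-strongest 3xTg peak of the list and no WT counterpart. The 3xTg peak (chr19:59457685-59458967) had a fold enrichment of 18.3 and ranked 613 of 5077, and no WT peak came closer than 627506 bases. Among the 2588 peaks of the 3xTg list that overlapped no WT peak, which had a median fold enrichment of 9.67 and a highest of 25.0, it ranked 7. The summit lay 24 bases downstream of the start site in the 5′ UTR, and the peak also counted for the antisense gene Emx2os. The best RE1 score in the peak was 7.26, which is no match. The 125 bases before the start site, shown on the plus strand from chr19:59458565-59458689, hold no capitals for that reason.
Emx2 upstream: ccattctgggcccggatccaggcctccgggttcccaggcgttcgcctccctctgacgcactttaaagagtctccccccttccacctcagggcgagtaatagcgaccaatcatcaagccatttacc

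Myt1 and Myt1l encode related zinc finger factors of differentiating neural cells, and Myt1l is known for repressing programmes of other lineages in neurons. Myt1 had a peak in the 3xTg list only (chr2:181764548-181765116), with a fold enrichment of 8.98, near the lower end of that list at a rank of 4337 of 5077. Its summit lay in an intron, 1544 bases downstream of a start site, and the closest WT peak was at a distance of 243610 bases. The RE1 match was centred 65 bases from the summit. It was 1 of 33 3xTg-only peaks with an RE1 score of at least 22, which was 1.28% of the 2588 such peaks, while 5.06% of the 2489 shared 3xTg peaks reached that score.

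Myt1l, whose body spans 394826 bases, had peaks in both lists at different places. The WT peak (chr12:29571664-29572097) had a fold enrichment of 7.19, ranked 1540 of 3006 and lay 36577 bases downstream of a start site. The 3xTg peaks lay deeper in the gene, at chr12:29733311-29733948, chr12:29788821-29789857 and chr12:29882684-29883441, with fold enrichments of 10.5, 12.4 and 8.98. All 4 peaks were intronic, none held an RE1 match, and the WT peak was 161214 bases from the nearest 3xTg peak. Long genes had peaks more often in general. Of the 540 genes of 300 kb or more, 38.3% had a WT peak and 56.1% a 3xTg peak, and 81 had at least 3 peaks in the 3xTg list.

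**Figure D2:**
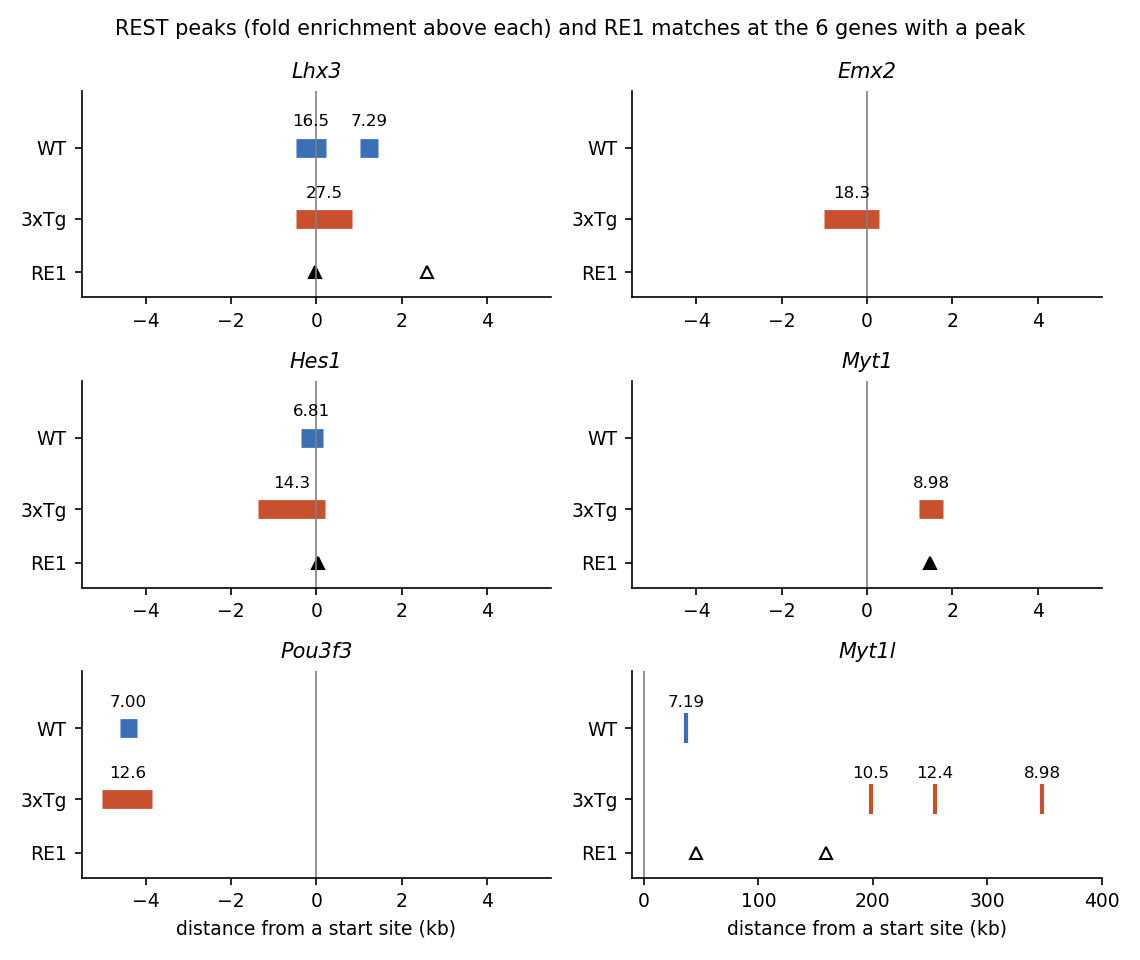
Each panel places the REST peaks of 1 gene by distance from its start site in kb, with the fold enrichment above each WT (blue) and 3xTg (orange) peak. Peaks are drawn to width, and as vertical ticks for Myt1l. Triangles mark RE1 matches, filled where the match lies in a 3xTg peak, and a Myt1 match farther inside the gene is beyond the axis. Lhx3 and Hes1 have overlapping peaks at the start site with a filled triangle, and the Myt1l peaks of the 2 lists do not meet.

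The peaks of the neural lineage factors spread over both lists. The 5 WT peaks had fold enrichments of 6.81 to 16.5 with a median of 7.19, close to the 7.28 of the whole list, and a median rank of 1540. The 8 3xTg peaks had fold enrichments of 8.98 to 27.5 with a median of 12.5, beside 10.8 for the list. By class, 2 of 5 WT peaks were WT-only (the whole WT list 16.7%) and 5 of 8 3xTg peaks were 3xTg-only (the whole 3xTg list 51%). The shared peaks belonged to 3 genes, which was 7.89% of the list beside 7.58% of all genes. Myt1l and Myt1 held 4 of the 5 3xTg-only peaks. Summits within 1 kb of a start site made up 2 of 5 WT peaks (the WT list 36.3%) and 3 of 8 3xTg peaks (the 3xTg list 30.6%). RE1 matches were present in 2 of 5 WT peaks, beside 6.72% of the WT list, and in 3 of 8 3xTg peaks, beside 5.2% of the 3xTg list. With the match required within 100 bases of the summit, the 3xTg count was 2, as the Hes1 match lay farther out. The weights had been built from 3xTg peaks, and most WT peaks overlap one, so the share in neither list is independent of them. With 5 and 8 peaks these are counts, and no test was made of them.

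**Figure D3:**
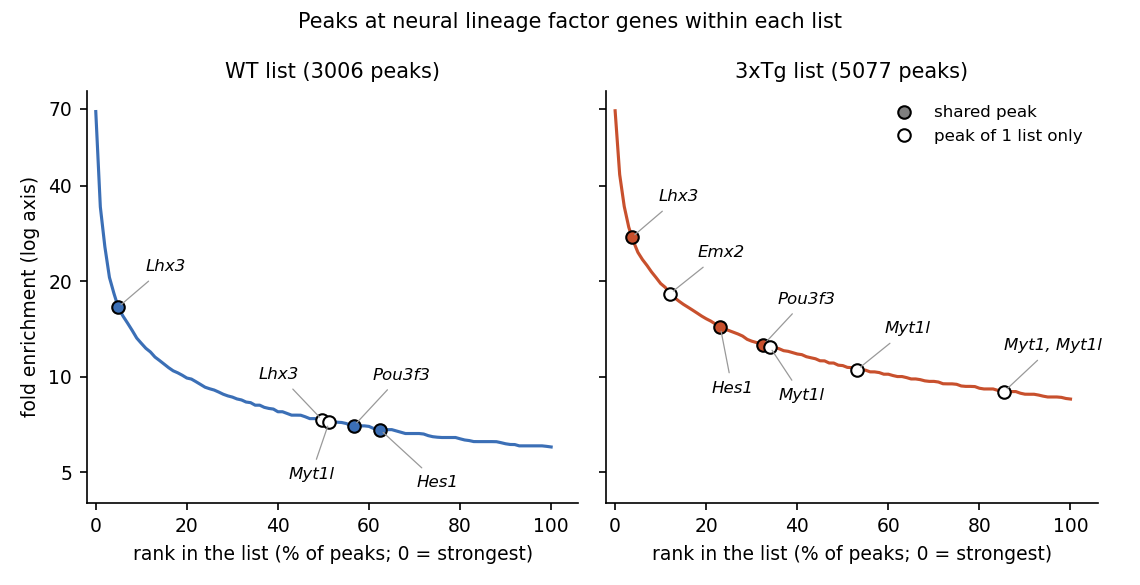
Curves give the fold enrichment (log axis) of all peaks of the WT list (left) and the 3xTg list (right) against their rank as a percentage of the list, strongest at 0. Circles are the peaks at neural lineage factors, filled if shared. Lhx3 stands in the top 5% of both lists, at 16.5 and 27.5, and the other circles lie at 49.8% to 62.4% of the WT list and 12.1% to 85.4% of the 3xTg list.

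Counts by role were small and are given beside the shares of all genes, 9.3% in WT and 14.2% in 3xTg, or 5.38% and 8.03% of genes under 10 kb. At those shares a role of 9 genes or fewer with no peak, or with a few, is not a result about the role. The neuronal bHLH genes had a peak in neither list, 0 of 9 genes. Neurod1, Neurod2, Neurod4, Neurod6, Neurog1, Neurog2, Neurog3, Nhlh1 and Nhlh2 had their nearest WT peak 306975 to 1583265 bases from a start site, with a median of 598581. In the 3xTg list the median was 169316 bases, and 2 genes came close to the 5 kb limit. Neurod2, a factor of excitatory cortical neurons, had a 3xTg-only peak (chr11:98323906-98324487) beyond the end of the gene, 5158 bases from the start site, with a fold enrichment of 9.23. It was the nearest peak that the rule left out, and it counted when predicted RefSeq transcripts of Neurod2 were included, a choice made after the data were seen. Neurod4 had a 3xTg-only peak 6833 bases upstream with a fold enrichment of 11.4. Neither peak held an RE1 match.

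Neurod1, a factor that drives neuronal and endocrine differentiation, had 2 RE1 matches over 22 and no peak. Its nearest 3xTg peak was 616752 bases from its start site and the nearest WT peak 1160305. A match in a coding exon and a match centred at -4199 bases from the start site therefore both lay outside any called peak. A lack of a peak means that the signal did not pass the limits of the deposited list, and the signal under those limits was not analysed here.

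Among the Hes, Hey and Id genes, Hes1 was the 1 of 7 with a peak. Hes5, Hey1, Id1, Id2, Id3 and Id4 had none in either list. Id1 was nearest to one, at 83705 bases for WT and 79896 for 3xTg, and those peaks were nearer to the start site of Bcl2l1, an inhibitor of apoptosis. The Sox genes had 0 of 5 with a peak. Sox2, Sox4, Sox9, Sox10 and Sox11, which maintain progenitors or direct neuronal and glial differentiation, were all at least 525789 bases from a WT peak and 286608 bases from a 3xTg peak. Sox4 had the most distant 3xTg peak of the 38 genes, at 1032028 bases.

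Among the homeodomain genes, Lhx3 and Pou3f3 had peaks in both lists and Emx2 in the 3xTg list, 2 and 3 of 9. Pax6, Lhx2, Lhx6, Isl1, Pou3f2 and Pou4f1 had none. Pax6, a regulator of cortical progenitors and the eye, had a shared peak 48253 bases (WT, fold enrichment 6.05) and 48133 bases (3xTg, 11.7) downstream of a start site. Lhx2, a selector of cortical identity, had a shared peak 66542 bases (WT) and 66344 bases (3xTg) downstream of a start site, past the end of the gene. That peak was strong, with a fold enrichment of 20.6 at rank 91 in WT and 31.2 at rank 127 in 3xTg, and it held an RE1 match with a score of 24.4. No start site of another gene was nearer to it than that of Lhx2. Lhx6, a factor of cortical interneurons, was the farthest of all from a WT peak, at 2006451 bases.

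The zinc finger genes had 1 of 5 with a WT peak and 2 of 5 with a 3xTg peak, which were Myt1l and Myt1. Insm1, Bcl11b and Fezf2 had none. Fezf2, which specifies subcortical projection neurons, had a 3xTg-only peak 7219 bases downstream of its start site with a fold enrichment of 8.98. Bcl11b, which acts with it in the same neurons, was 175995 bases from a WT peak and 175650 from a 3xTg peak. Olig1 and Olig2 lie next to each other and had no peak by the rule. A 3xTg-only peak between them (chr16:91254592-91255541, fold enrichment 10.2) was 14228 bases upstream of Olig1 and 29042 bases downstream of the Olig2 start site. Tbr1, a factor of deep-layer neurons, was 507311 bases from a WT peak and 346368 from a 3xTg peak.

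**Figure D4:**
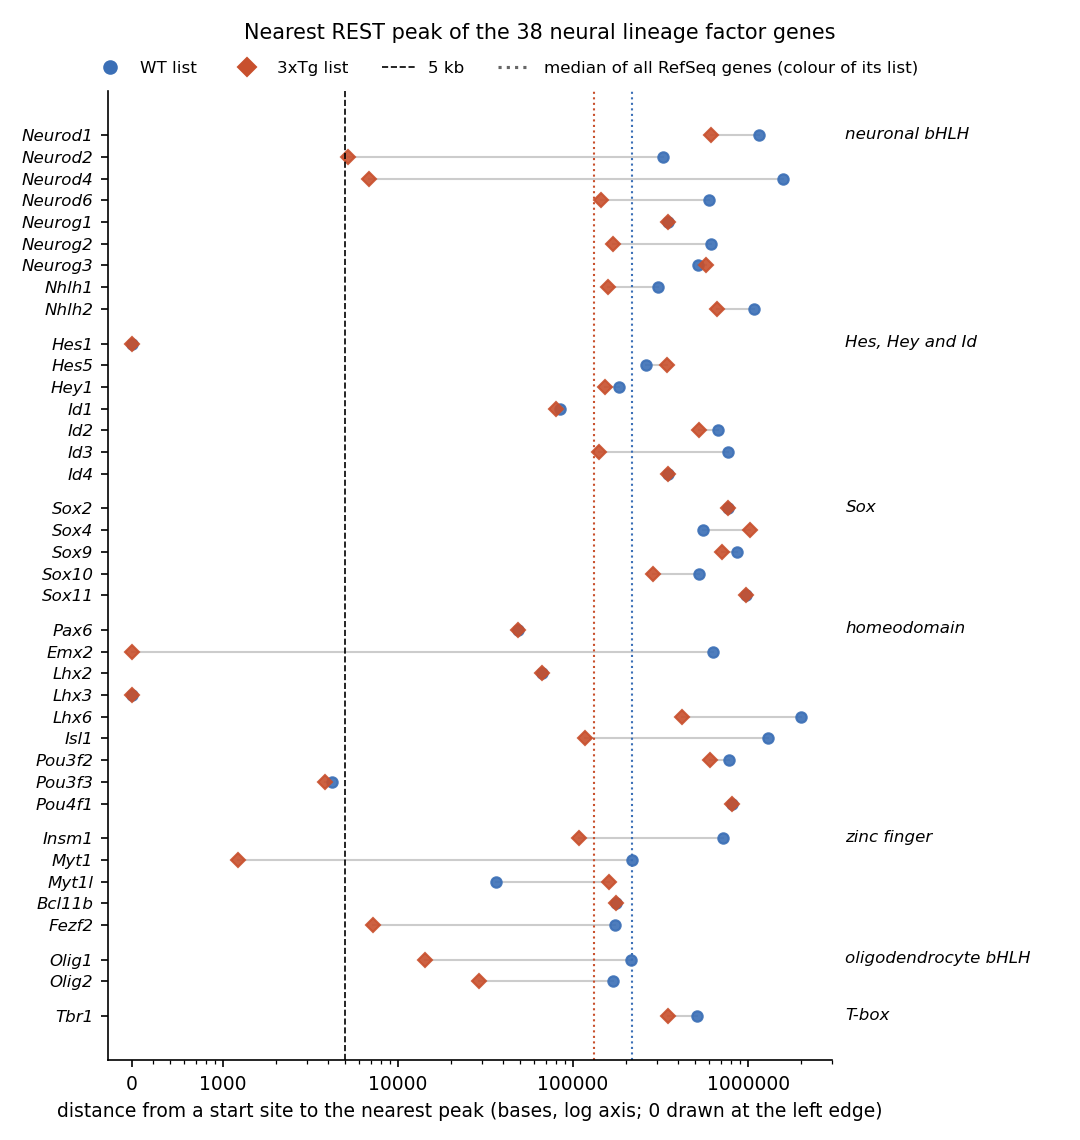
For each of the 38 genes, ordered by role, the distance in bases (log axis) from a start site to the nearest WT peak (circles) and 3xTg peak (diamonds). The dashed line is 5 kb, and the dotted lines are the medians of all RefSeq genes, 216530 bases in WT and 131063 in 3xTg. Most circles lie right of the dotted line of the WT list, and Myt1l is called through peaks on its body.

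The start sites of most of the 38 genes, those with a peak included, were far from one. The nearest WT peak was over 100 kb from the start sites of 31 of the 38 genes, beside 68% of all genes, and the nearest 3xTg peak of 25 of 38, beside 56.7%. The 25 include Myt1l, whose 3xTg peaks on its body had summits 198497 bases or more from a start site. The 3xTg peak nearest to a Myt1l start site, at 159651 bases, was another one, outside the gene body. The median distance was 512656 bases to a WT peak and 159394 to a 3xTg peak, against 216530 and 131063 over all genes. The 38 genes were short, with a median length of 4847 bases against 13498 for all genes, which bears on a rule that counts the gene body. Among genes under 10 kb, 3 of 30 listed genes (10%) had a WT peak and 4 of 30 (13.3%) a 3xTg peak, beside 5.38% and 8.03% of all genes of that length. These shares rest on 3 and 4 genes, were not tested and are not a result about the list.

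The promoters of the neural lineage factors were rich in CpG. A RefSeq promoter sequence of GRCm38.p6, from 250 bases before to 50 after the start site, was matched for 31 of the 38 genes. The median ratio of observed to expected CpG was 0.745, beside 0.586 for 19453 genes, and 23 of 31 reached 0.6 (74.2%, all genes 49%). Among promoters at or over 0.6, 2 of 23 listed genes had a WT peak within 5 kb of a start site (8.7%, all genes 11.3%) and 3 of 23 a 3xTg peak (13%, all genes 16.6%). Hes1, which had a start-site peak in both lists, had no matched promoter sequence and is left out of these counts. With counts this small, the shares change with a single gene and are not a result about the list.

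RE1 matches lay within the gene body or 5 kb of a start site at 12 of the 38 genes (31.6%), beside 27.6% of all genes, and they numbered 18. Scores of at least 22 were reached at 3 genes, Lhx3, Neurod1 and Myt1, 7.89% of the list beside 2.48% of all genes. Of all 647 genes with such a match, 31.4% had a WT peak and 41.9% a 3xTg peak. Weaker matches lay outside peaks at Lhx2 (20.6 and 16.7), Insm1 (19.8), Myt1 (18.4), Sox10 (18.1 and 15.9), Bcl11b (16.7), Myt1l (16.4 and 15.9), Neurod2 (15.7), Olig2 (15.3) and Hey1 (15.3). Over chromosomes 1 to 19 and X there were 19853 matches, of which 1.48% lay in a WT peak and 1.88% in a 3xTg peak. The share in a 3xTg peak rose with the score, from 0.677% of matches under 18 to 31.3% of the 339 matches of at least 26. The weights came from sites in 3xTg peaks, so sites used to build them can be among the matches. Most WT peaks overlap a 3xTg peak, so this rise and the shares in both lists are not independent of the weights. Of the 18 matches at listed genes, 2 lay in a WT peak and 3 in a 3xTg peak. A match describes the letters of the genome and is not by itself a site of binding.

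**Figure D5:**
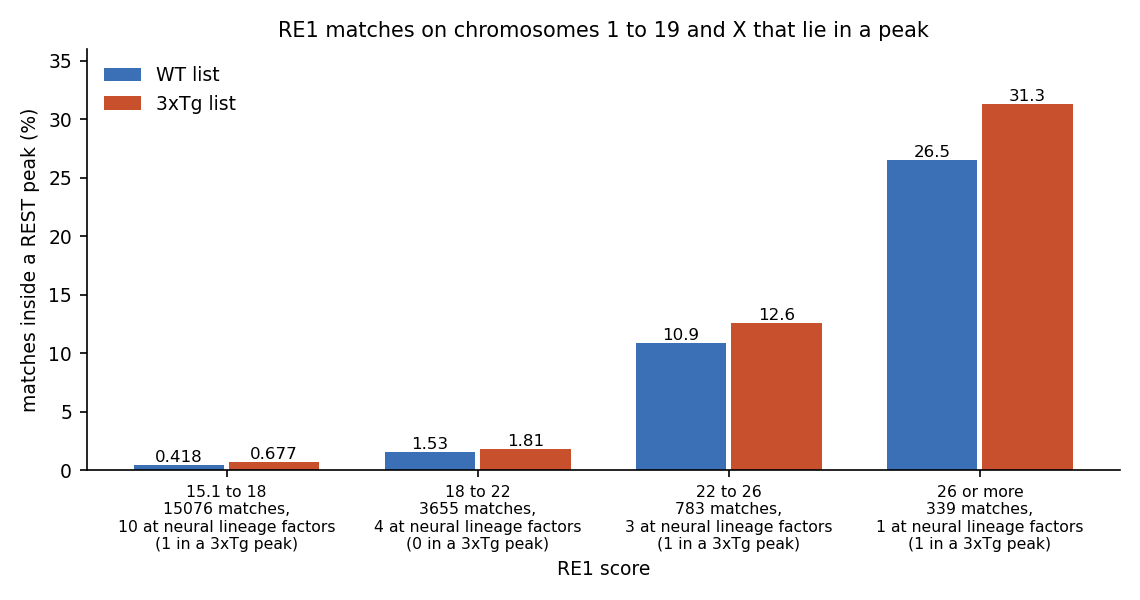
Bars give the percentage of RE1 matches on chromosomes 1 to 19 and X that lie in a WT peak (blue) or a 3xTg peak (orange), by RE1 score. The share rises to 26.5% and 31.3% at scores of 26 or more, the class that holds 1 match at a neural lineage factor, that of Lhx3. The RE1 weights were built from sites in 3xTg peaks, so the shares are not independent of them.

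Related genes were counted in lists chosen alongside the 38, by the same rule with the gene body and then by start sites alone. With the gene body, 9.3% of all genes had a WT peak and 14.2% a 3xTg peak. Of 54 other members of the same families, 5 (9.26%) had a WT peak and 8 (14.8%) a 3xTg peak. The strongest was Pax5, a B cell and midbrain factor, with fold enrichments of 16.1 in WT and 30.2 in 3xTg, followed by Insm2 with 10.5 and 19.4. Hes3, a Hes family repressor of progenitors, had a shared peak of 7.83 in WT that held an RE1 match of 27.1. The Notch list had 4 of 18 genes with a WT peak and 5 of 18 with a 3xTg peak, led by the coactivator Maml2 at 11.0 and 17.1. Rbpj, which binds DNA for the Notch pathway, had a WT fold enrichment of 9.08. The E proteins, which pair with the bHLH factors and are bound by Id proteins, had peaks in both lists at all 3 genes, with WT fold enrichments of 9.64 at Tcf4, 6.97 at Tcf3 and 6.43 at Tcf12. In the BMP and Smad list, 1 of 10 genes had a WT peak (Smad1) and 2 had a 3xTg peak (Smad1 and Bmpr2). Of 27 other neural factors, 5 had a peak in each list, led by the repressor Scrt1 with fold enrichments of 18.1 and 30.0 and an RE1 match of 24.4, then Nfib with 12.7 and 23.2. Within 5 kb of a start site alone, where 6.72% of all genes had a WT peak and 9.87% a 3xTg peak, the counts in WT and 3xTg were 4 and 5 of 54 for the families, 2 and 3 of 18 for Notch, 2 and 2 of 27 for the other neural factors and 0 of 10 in both lists for BMP and Smad. Of the E proteins, 1 of 3 had such a peak, Tcf3, so the peaks of Tcf4 and Tcf12 lay in the gene body. Tcf4 is a long gene, with its strongest 3xTg summit 321314 bases from a start site. Of genes of 300 kb or more, 38.3% had a WT peak and 56.1% a 3xTg peak. These lists were chosen with earlier results of these data known, and no test was made of their shares.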

How the data were processed

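REST ChIP-seq libraries (4 WT and 4 3xTg replicates, 1 input per genotype) were single-end. The authors' methods name STAR 2.7.0a for alignment to mm10, while GEO's labels of replicates 1 and 2 and the inputs name BWA. The authors called peaks with MACS, kept fold enrichment over 5 and q under 0.01, and removed ENCODE blacklist peaks. They deposited 1 list per genotype over all replicates, so a peak has no replicate spread, and read depth was not analysed here. The deposited lists give per peak a score (not used), the fold enrichment (a ratio over local background), a p-value that was not used, the −log10 q-value and the summit offset. Replicates 3 and 4 were deposited later, and the lists do not separate the sets.

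Peaks on chromosome Y (4 WT, 9 3xTg) were left out, because this gives the peak numbers of the study. Genes were curated RefSeq transcripts of GRCm38.p6 (mm10), merged per gene. Genes were counted and set beside all genes, with no significance test. Members with a peak are described in full, and other genes come from lists in which at most 3 with the highest fold enrichment are named. Members and lists were chosen with earlier results of these data known, and the Neurod1, Neurod2, Lhx2 and other nearby peaks or matches were named after their values were seen. RE1 scores sum log2 ratios of base shares to 0.25. Python 3.11.15, numpy 2.4.6, pandas 2.3.3, numba 0.67.0, pysam 0.24.0, samtools 1.23.1 and matplotlib 3.10.9 were used. The programs were tested on simulated data. Alternatives were other limits, distances, overlaps and RE1 scores, as given at the end.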

Additional observations from a re-analysis of the deposited data

How the results depend on the processing

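Across 11 settings, 51 counts were recomputed, and 42 stayed within 1.5 times of the reported count. When both lists were limited to fold enrichments over 10, 1 member had a WT peak (2.63%, all genes 1.91%) and 5 had a 3xTg peak (13.2%, all genes 9.41%). At that limit 1 member had a peak in both lists and 0 WT peaks at members were WT-only. With as many 3xTg as WT peaks, 5 members had a 3xTg peak (13.2%, all genes 8.82%), and 3 member peaks were 3xTg-only. With start sites alone, 2 member peaks were 3xTg-only and 1 was WT-only. When shared peaks had to cover 50% of each other, 1 member had a shared peak, beside 3 at an overlap of 1 base, and 4 WT peaks were WT-only. The 4 members with any peak in each list were unaffected by this overlap. In the tally of 42, however, the 1 member with a shared peak was set against these 4, an unlike measure, and taken as changed. At the RE1 score reached by 0.1% of windows, 22.48, 1 member peak held a match, since Myt1 scored 22.45. The fewer peaks, shorter reach, stricter overlap or higher score of each setting produce these changes. For the WT-only, 3xTg-only, shared and RE1 counts, the shares over all peaks or genes under these settings are not given here. Those counts are therefore not a result about the list. Including predicted transcripts added Neurod2 (7 members with a 3xTg peak, 6 3xTg-only peaks), and keeping chromosome Y changed none of the 5 counts computed with it. Both were chosen after the data were seen. No replicate could be left out and no paired analysis was possible because each deposited list combines the replicates of its genotype. For the same reason, genotype, depth and list limit cannot be told apart for any peak present in 1 list only.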
